A study of Homo sapiens with 18 samples.

Results

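The 9 genes described here serve MHC class I, the complex that shows peptides from inside a cell to CD8 T cells. They were the gene IDs that map to HLA-B, HLA-C, HLA-E, HLA-F, B2M, TAP1, TAP2, PSMB8 and PSMB9 among 60252 gene IDs, and all 9 passed the filter on low counts. The RNA came from ZR-75-1, an established cell line of estrogen receptor-positive luminal breast cancer. Cells with a knockdown of ADAR, which edits adenosine to inosine in double-stranded RNA, were compared with a control line named SHC in the labels. Each line was given 100 nM triptolide, an inhibitor of RNA polymerase II, or DMSO as vehicle, or was not treated, for 16 h in medium with low serum. That made 6 groups of 3 libraries, numbered as biological replicates 1 to 3, and 18 libraries in all. The labels do not say whether either line is a single clone. Libraries held between 26.7e6 and 35.7e6 counts in genes. Mitochondrial ribosomal RNA took 42.7% to 55.2% of those counts with triptolide and 20.2% to 37.1% without it. All 14 luminal epithelial markers averaged at least 1 count per 1000000 counts of library (CPM), and 3 of 14 leukocyte markers did, HLA-DRA among them, while the pan-leukocyte marker PTPRC averaged 0.0687 CPM.

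In the class I pathway the proteasome cuts proteins into peptides, and in its interferon-inducible form, the immunoproteasome, PSMB8 and PSMB9 replace the constitutive catalytic subunits PSMB5 and PSMB6. TAP1 and TAP2 form the transporter that moves peptides into the endoplasmic reticulum. There each peptide is loaded onto a heavy chain (HLA-B, HLA-C, HLA-E or HLA-F in this set) that is paired with the invariant light chain beta-2 microglobulin, encoded by B2M. Type I and type II interferons raise the transcription of these genes through the interferon regulatory factors (IRFs), and NLRC5, the class I transactivator, acts with the RFX, CREB and NF-Y factors on their promoters. When ADAR is lost, unedited double-stranded RNA can be sensed by MDA5 and start an interferon response, which is why the pathway is of interest in a knockdown of this enzyme.

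In the build of the deposited files (GRCh37), 8 of the 9 genes lie in the major histocompatibility complex on chromosome 6 and B2M lies on chromosome 15. HLA-B spans positions 31321649 to 31334844 on the minus strand, HLA-C 31236526 to 31239907 on the minus strand, HLA-E 30457286 to 30461971 on the plus strand and HLA-F 29690552 to 29706305 on the plus strand. The other 4 lie close together: TAP2 at 32789610 to 32806516, PSMB8 at 32808494 to 32812456 and TAP1 at 32812986 to 32821593 run on the minus strand, and PSMB9 at 32811913 to 32827628 runs on the plus strand. The annotated span of PSMB9 covers that of TAP1 and overlaps part of PSMB8. B2M spans 45003556 to 45011049 on the plus strand of chromosome 15. All are annotated as protein-coding.

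Promoter windows (RefSeq, GRCh38.p14, 250 bases before to 50 after a start) were found for 8 of the 9 genes, 10 windows in all. The 6 shown here carry the motif that links these genes to interferon and allow TAP2, which varied least between libraries, to be set beside the others. Capitals mark each match, on either strand, to AANNGAAA, the core that IRF proteins bind. Each is written 5′ to 3′ along its gene. HLA-B is chr6:31357130-31357429 (minus strand), HLA-F is chr6:29723184-29723483 (plus), B2M is chr15:44711267-44711566 (plus), TAP1 is chr6:32853655-32853954 (minus), TAP2 is chr6:32838690-32838989 (minus) and PSMB8 is the downstream one of its 2 starts, chr6:32843998-32844297 (minus).
HLA-B: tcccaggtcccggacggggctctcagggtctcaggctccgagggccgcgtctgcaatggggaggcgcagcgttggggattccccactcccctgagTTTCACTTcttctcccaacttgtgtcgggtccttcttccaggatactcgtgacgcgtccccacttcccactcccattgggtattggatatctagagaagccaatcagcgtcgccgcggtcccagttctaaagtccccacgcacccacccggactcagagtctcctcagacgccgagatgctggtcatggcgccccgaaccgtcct
HLA-F: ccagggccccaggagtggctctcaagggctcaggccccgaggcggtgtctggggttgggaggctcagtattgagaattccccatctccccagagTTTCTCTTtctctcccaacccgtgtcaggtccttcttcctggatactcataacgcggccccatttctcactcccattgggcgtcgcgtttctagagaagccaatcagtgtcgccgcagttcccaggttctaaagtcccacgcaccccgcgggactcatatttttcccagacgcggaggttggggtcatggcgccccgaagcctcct
B2M: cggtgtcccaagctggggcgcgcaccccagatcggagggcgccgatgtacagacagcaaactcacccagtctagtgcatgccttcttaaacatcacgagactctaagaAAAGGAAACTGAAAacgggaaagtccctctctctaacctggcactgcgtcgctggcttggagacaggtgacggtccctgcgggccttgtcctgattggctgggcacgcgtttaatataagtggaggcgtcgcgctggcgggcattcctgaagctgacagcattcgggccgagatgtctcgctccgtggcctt
TAP1: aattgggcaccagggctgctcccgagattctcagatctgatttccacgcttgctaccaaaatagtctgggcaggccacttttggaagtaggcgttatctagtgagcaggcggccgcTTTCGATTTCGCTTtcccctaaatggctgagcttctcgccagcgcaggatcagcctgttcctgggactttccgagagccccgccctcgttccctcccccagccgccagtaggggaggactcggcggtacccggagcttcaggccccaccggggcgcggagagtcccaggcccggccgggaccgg
TAP2: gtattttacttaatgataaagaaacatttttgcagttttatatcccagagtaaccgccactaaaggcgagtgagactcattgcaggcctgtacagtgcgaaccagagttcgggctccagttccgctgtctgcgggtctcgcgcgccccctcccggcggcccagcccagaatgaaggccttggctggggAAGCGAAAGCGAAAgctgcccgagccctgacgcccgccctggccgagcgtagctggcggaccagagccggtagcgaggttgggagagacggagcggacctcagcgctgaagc
PSMB8: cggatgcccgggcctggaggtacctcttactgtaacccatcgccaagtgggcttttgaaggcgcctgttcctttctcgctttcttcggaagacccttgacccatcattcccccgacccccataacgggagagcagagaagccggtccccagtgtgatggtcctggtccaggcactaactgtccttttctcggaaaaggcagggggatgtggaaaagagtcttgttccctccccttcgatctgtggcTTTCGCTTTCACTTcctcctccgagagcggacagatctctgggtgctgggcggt
The IRF core was present in 7 of the 10 windows, which belong to 7 of the 8 genes, PSMB9 being the exception, against 22.8% of all 35116 windows in the table. In the heavy chains it lay at about the same place, from base -155 in HLA-B, -151 in HLA-C and -156 in HLA-F relative to the start. B2M, TAP1, TAP2 and PSMB8 held it as 2 copies that overlap by a few bases, from base -142 to -129 in B2M, -134 to -121 in TAP1, -62 to -49 in TAP2 and -4 to 10 across the start of PSMB8. An NF-kB motif, GGGNNTTNCC, was found in 3 of the 10 windows (HLA-B, B2M and TAP1) and in 5.68% of all windows. TGACG, the core of a cAMP response element, which CREB binds, was found in 6 of the 10 (HLA-B, HLA-C, B2M, TAP2, PSMB8 and PSMB9) and 24.6% of all windows. CCAAT, bound by NF-Y, was found in 6 of the 10 (HLA-B, HLA-C, HLA-F, B2M, TAP1 and PSMB9) and 34.6% of all windows. TAP1 and PSMB9 are transcribed away from each other, and their windows share 13 bases. A match describes letters in a window and does not show binding.

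Levels between genes are given per kilobase of the canonical transcript, as CPM per kb over the 12 libraries without triptolide. B2M was highest at 362 ± 100.5 CPM per kb (SD, n = 12), then HLA-B at 178 ± 77.7, HLA-C at 71.7 ± 26.4, HLA-E at 47.2 ± 10.8 and PSMB8 at 38.7 ± 14.1. TAP1 followed at 18.1 ± 4.43, and PSMB9 (8.76 ± 2.97) and HLA-F (8.62 ± 4.29) were level with each other. TAP2 was lowest at 1.93 ± 0.235 CPM per kb. The ranges of HLA-C (40.2 to 119), HLA-E (32.6 to 62.3) and PSMB8 (23.5 to 67.9) overlapped over the 12 libraries. These ranges pool libraries that differ in level, and the order of the genes within each library was not tested. The transporter chains differed in how far they varied: over all 18 libraries TAP2 spanned 1.80-fold from its lowest to its highest CPM and TAP1 2.72-fold, and HLA-B and HLA-F spanned 6.30-fold and 6.55-fold.

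**Figure D1:**
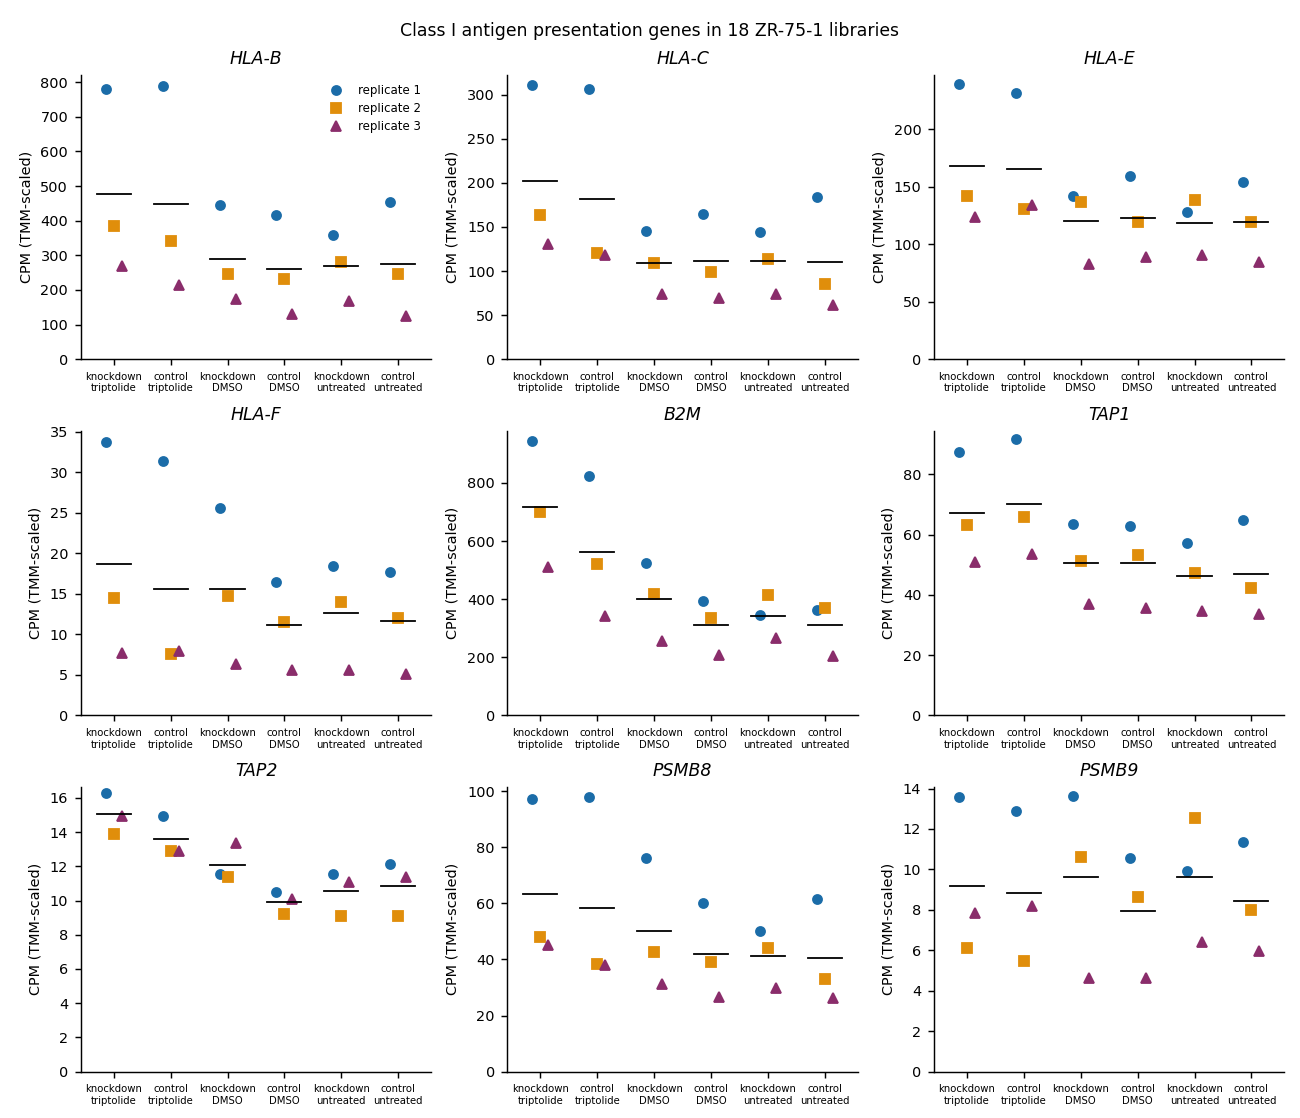
CPM, TMM-scaled, on the y axis for the 9 genes in the 18 libraries, by line and treatment on the x axis; symbols mark the replicate number and black bars the mean of 3. The libraries numbered 1 are the highest of their group in all 6 groups for HLA-B, HLA-C, HLA-F, TAP1 and PSMB8, while for TAP2 the 3 numbers lie close together.

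ADAR was lower in the knockdown line in each of 9 pairs of libraries with the same number and treatment. It averaged 138 ± 27.2 CPM in the knockdown line and 379 ± 77.8 CPM in the control line with triptolide (SD, n = 3 each), 289 ± 69.7 and 467 ± 192 CPM with DMSO, and 295 ± 86.9 and 479 ± 184 CPM untreated. With triptolide the groups did not overlap and the log2 change was -1.46 ± 0.34 (SE), while with DMSO and untreated the groups overlapped and the changes were -0.69 ± 0.33 and -0.70 ± 0.33. In edgeR's quasi-likelihood test with Benjamini-Hochberg adjustment over the 21285 genes tested, the triptolide difference had an adjusted p of 0.324. With the replicate number as a block it passed, with an adjusted p of 0.000192, and the other 2 did not (0.144 with DMSO, 0.137 untreated). Over the 9 pairs the median ratio of knockdown to control was 0.536.

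Against this partial loss of ADAR, none of the 9 class I genes passed the test in the knockdown line under any treatment. B2M, the light chain, came closest: its CPM was 943, 699 and 511 in knockdown libraries 1 to 3 and 825, 522 and 343 in control libraries 1 to 3 with triptolide. With DMSO it was 525, 417 and 255 CPM in the knockdown line and 394, 335 and 208 CPM in the control line, and untreated it was 347, 415 and 265 CPM in the knockdown line and 364, 369 and 205 CPM in the control line. The knockdown library was the higher of the pair in 8 of 9, the untreated pair 1 being the exception, although the groups overlapped under each treatment. The log2 changes with the replicate block were 0.39 ± 0.15 (SE) with triptolide, 0.34 ± 0.15 with DMSO and 0.17 ± 0.15 untreated, with adjusted p of 0.418, 0.577 and 0.951 in the edgeR test.

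The heavy chains were higher in 5 to 8 of 9 pairs. HLA-B was at 779, 384 and 268 CPM in the knockdown line and 789, 341 and 213 CPM in the control line with triptolide, and at 446, 246 and 173 CPM against 415, 232 and 130.2 CPM with DMSO. Libraries 2 and 3 of the knockdown line lay above their controls and library 1 varied with treatment, so 7 of 9 pairs were higher in the knockdown line. HLA-C was higher in 7 of 9 pairs and HLA-E, the ligand of the NKG2A receptor on natural killer cells, in 5 of 9, with ratios between 0.785 and 1.36 for HLA-C and between 0.828 and 1.16 for HLA-E. HLA-F, a nonclassical chain, was higher in 8 of 9 pairs, but the size of the difference ranged from a ratio of 0.980 to one of 1.91. Fitted with the block, HLA-F differed by 0.26 ± 0.23 with triptolide, 0.39 ± 0.22 with DMSO and 0.14 ± 0.22 untreated on the log2 scale.

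The paired libraries of TAP1 lay closest together. Its CPM was 87.5, 63.2 and 51.1 in the knockdown line and 91.6, 65.9 and 53.4 in the control line with triptolide, 63.5, 51.1 and 36.9 against 62.7, 53.2 and 35.5 with DMSO, and 57.2, 47.3 and 34.6 against 64.8, 42.2 and 33.7 untreated. The knockdown library was higher in 4 of 9 pairs, and the fitted changes with the block were -0.06 ± 0.11, 0.00 ± 0.11 and 0.00 ± 0.11, with 95% intervals that reached from -0.30 to 0.24 over the 3 treatments. TAP2, its partner, gave the one pair of groups that did not overlap: with DMSO it was at 11.6, 11.4 and 13.4 CPM in the knockdown line and 10.5, 9.22 and 10.1 CPM in the control line. That difference was 0.28 ± 0.18 on the log2 scale without the block and 0.29 ± 0.13 with it (adjusted p = 0.679 in the edgeR test), and TAP2 differed by 0.14 ± 0.14 with triptolide and -0.04 ± 0.14 untreated. The share of all genes whose groups did not overlap was not counted. Of the immunoproteasome subunits, PSMB8 was higher in 7 of 9 pairs and PSMB9 in 6 of 9.

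**Figure D2:**
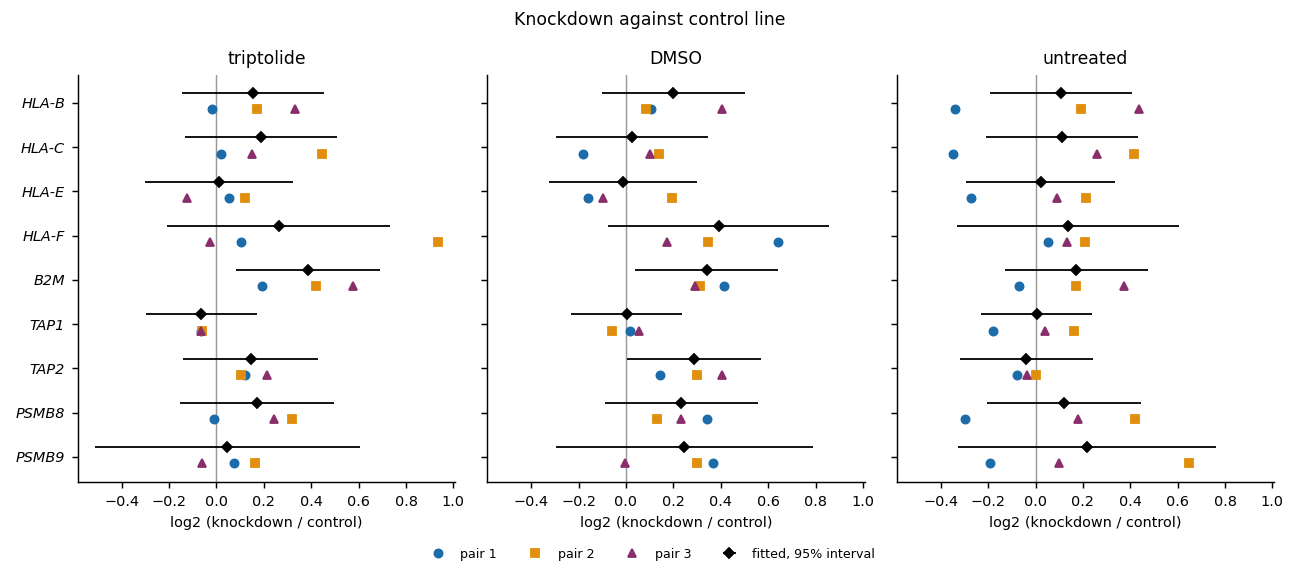
Log2 ratio of the knockdown to the control line on the x axis for the 9 genes, by treatment; coloured symbols are the 3 pairs of libraries with the same number and black diamonds the change fitted with the replicate block, with its 95% interval. The intervals of B2M with triptolide and DMSO and of TAP2 with DMSO lie above 0, and none of these passes after adjustment over all genes.

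Of all genes tested, 0.0658% were called with triptolide, 0.094% with DMSO and 0.0987% untreated, and 0.644%, 0.606% and 0.578% with the block. The count of members was 0 of 9 each time, with and without the block, and also 0 of 9 in DESeq2. Before adjustment, no member had p under 0.05 in the edgeR fit without the block, and with it 1 did with triptolide (B2M), 2 with DMSO (B2M and TAP2) and 0 untreated. With the block, the 95% intervals of the 9 members under the 3 treatments reached from -0.51 to 0.86 on the log2 scale.

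Some genes that interferon induces did differ between the lines in the same libraries. Of 44 interferon-stimulated genes outside the 9, 3 were called higher in the knockdown line with DMSO and 3 untreated, IFI44, IFI44L and RSAD2 each time, and 1 with triptolide, IFI44L. These calls were made with the replicate block, and without it 0 of the 44 were called under each treatment. IFI44L was at 75.1, 112 and 0.596 CPM in the knockdown line and 5.62, 25.0 and 0 CPM in the control line with DMSO. RSAD2, the antiviral enzyme viperin, was at 15.5, 10.2 and 0.567 CPM in the knockdown line and 2.03, 2.81 and 0.0967 CPM in the control line. Their log2 changes with DMSO were 3.01 ± 0.40 and 2.38 ± 0.32 with the block (edgeR adjusted p = 0.000216 for each). Over the whole list the median log2 change with the block was 0.43 with DMSO, beside 0.23 over the 9 class I genes and -0.01 over all genes tested. NLRC5, the class I transactivator, was the higher in the knockdown library of 8 of 9 pairs and was at 21.8, 8.27 and 6.15 CPM in untreated knockdown libraries, against 12.7, 5.34 and 5.14 CPM in untreated control libraries. Its untreated change of 0.56 ± 0.18 with the block did not pass (edgeR adjusted p = 0.273). NLRC5 averaged 11.1 CPM in the knockdown line and 8.85 CPM in the control line with DMSO, and 15.1 and 12.6 CPM with triptolide. IRF1, an activator of class I promoters, was higher in the knockdown library of 4 of 9 pairs. None of the 33 other genes of the class I pathway, NLRC5 among them, was called under any treatment, with or without the block.

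Whether the class I genes were higher or lower with triptolide than with DMSO depended on what the counts were scaled to. Scaled by TMM, which sets the bulk of genes to no change, B2M averaged 717 ± 217 CPM with triptolide and 399 ± 136 CPM with DMSO in the knockdown line, and 564 ± 244 and 313 ± 94.8 CPM in the control line (SD, n = 3 each). With the block and scaling to the 13 mitochondrial mRNAs, its change turned negative in both lines. Without the block, B2M was not below 0 in the control line under that scaling. Scaled to totals of gene counts, it was not below 0 in either line. All 6 pairs of libraries were higher with triptolide on the TMM scale, by 1.56 to 2.10 times. The groups overlapped in both lines, since library 3 with triptolide lay below library 1 with DMSO. Without the block the log2 change was 0.85 ± 0.35 in each line, with adjusted p of 0.0713 in the knockdown line and 0.0775 in the control line in the edgeR test. With the block B2M passed in both, at 0.87 ± 0.15 and 0.82 ± 0.15.

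Among the heavy chains, HLA-B was at 779, 384 and 268 CPM with triptolide against 446, 246 and 173 CPM with DMSO in the knockdown line, and at 789, 341 and 213 CPM against 415, 232 and 130.2 CPM in the control line. On the TMM scale every triptolide library was 1.47 to 1.90 times its DMSO partner (the fitted change was negative under mitochondrial scaling), yet the replicates of a group differed by more than that, so the groups overlapped. HLA-C was at 310.4, 164 and 131 CPM with triptolide against 145, 109 and 74.0 CPM with DMSO in the knockdown line, and at 306, 120.3 and 118 CPM against 165, 99.3 and 69.1 CPM in the control line. Its pairs were 1.21 to 2.14 times higher on this scale. HLA-E was higher in 6 of 6 pairs but by 1.04 and 1.10 times only in those numbered 2. HLA-F was higher in 4 of 6, and lower in the pairs numbered 2, where it was at 14.4 CPM with triptolide against 14.7 CPM with DMSO in the knockdown line and at 7.54 against 11.5 CPM in the control line.

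The transporter chains were the steadiest. TAP2 was at 16.3, 13.9 and 14.9 CPM with triptolide against 11.6, 11.4 and 13.4 CPM with DMSO in the knockdown line, and at 15.0, 12.9 and 12.9 CPM against 10.5, 9.22 and 10.1 CPM in the control line. On the TMM scale the TAP2 groups with triptolide and DMSO did not overlap in either line, while those of the other members did. The gap in the knockdown line was narrow, between 13.4 CPM with DMSO and 13.9 CPM with triptolide. The change there did not pass (edgeR adjusted p = 0.192 without the block and 0.055 with it). Under mitochondrial scaling the fitted change of TAP2 was negative. How many of all genes had groups without overlap was not counted. TAP1 was 1.24 to 1.51 times higher with triptolide in 6 of 6 pairs. PSMB8 was higher in 5 of 6 pairs, and PSMB9 was split by replicate: with triptolide it was 1.70 and 1.77 times its DMSO partner in the pairs numbered 3, 0.996 and 1.22 times in those numbered 1, and 0.576 and 0.632 times in those numbered 2.

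Without the block 0 of the 9 members were called in either line in edgeR, where 35.7% of all genes tested were called in the knockdown line and 30.8% in the control line. An unadjusted p under 0.05 was found for 1 member (B2M) in the knockdown line and 2 (B2M and TAP2) in the control line. DESeq2 called 1 (B2M) in the knockdown line and 2 (B2M and TAP2) in the control line. With the replicate block 5 of 9 were called higher in the knockdown line (HLA-B, HLA-C, HLA-E, B2M and TAP1) and 7 of 9 in the control line (these and TAP2 and PSMB8) on the TMM scale, while none of them was called higher when counts were scaled to mitochondrial mRNAs. The background with the block was 57.1% of genes called and 29.1% called higher in the knockdown line, and 52.1% and 26.1% in the control line. The largest of these changes were those of B2M, of HLA-C (0.83 ± 0.15 in the knockdown line and 0.66 ± 0.15 in the control line) and of HLA-B (0.69 ± 0.14 and 0.74 ± 0.15). HLA-F and PSMB9 passed in neither line.

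Scaling to the totals of gene counts, in which mitochondrial ribosomal RNA weighs more, or to the mitochondrial mRNAs, which another polymerase makes, lowered every value. With the block and scaling to mitochondrial mRNAs, 7 of 9 members were called lower with triptolide in the knockdown line, all but HLA-C and B2M, where 68.7% of all genes were called lower, and 0 of 9 in the control line, where 46.6% were. Scaled to totals with the block, 2 of 9 (TAP2 and PSMB9) and 0 of 9 were called lower, where 51.3% and 48.6% of all genes were. With the block and scaling to mitochondrial mRNAs, HLA-B changed by -0.80 ± 0.34 in the knockdown line and by -0.12 ± 0.34 in the control line, and PSMB9 by -1.41 ± 0.36 and -0.72 ± 0.36. Mitochondrial scaling without the block also moved the median gene between DMSO and untreated libraries, by 0.54 in the knockdown line and -0.22 in the control line. The median interaction of knockdown and triptolide over all genes was -0.62 under it. A scaling shifts all genes of a library alike, so the place of the members among all genes is nearly the same under each. With the block and TMM, the median log2 change of the 9 exceeded the median of all genes tested by 0.36 in the knockdown line, where 8 of 9 members, all but PSMB9, were above the median gene, and by 0.42 in the control line, where 9 of 9 were. The summed level of the 13 leukocyte markers other than HLA-DRA was also higher with triptolide, at 11.3 to 20.0 CPM against 4.62 to 8.08 CPM with DMSO in the knockdown line and at 9.86 to 19.0 CPM against 5.35 to 8.58 CPM in the control line. The sum of 6 endothelial markers was likewise higher, at 4.86 to 8.68 CPM against 1.84 to 2.43 CPM in the knockdown line and at 4.74 to 10.02 CPM against 1.61 to 3.36 CPM in the control line. The sum of 11 stromal markers was at 18.2 to 39.0 CPM against 10.8 to 18.5 CPM in the knockdown line, which overlapped, and at 16.4 to 26.6 CPM against 12.6 to 16.0 CPM in the control line. The part of these low-level markers in the result was not tested. In bulk RNA, more RNA per cell and a change in which cells remain cannot be told apart.

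**Figure D3:**
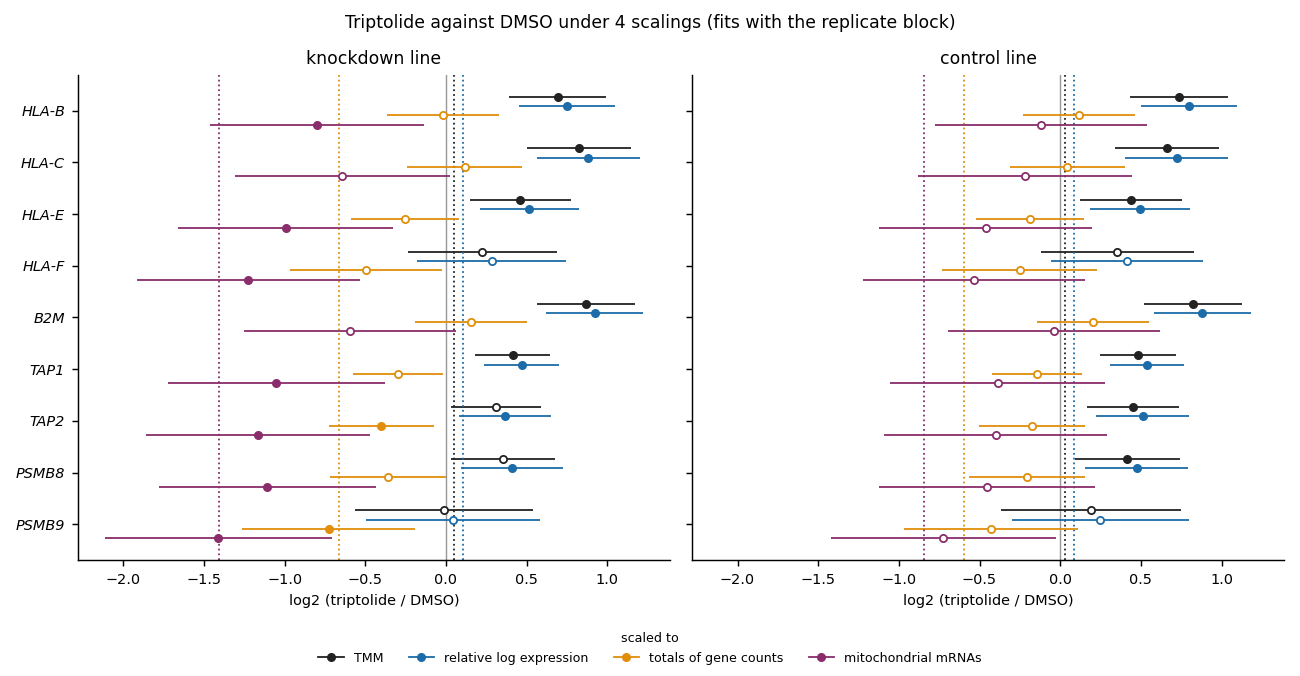
Log2 ratio of triptolide to DMSO on the x axis for the 9 genes in each line, fitted with the replicate block under 4 scalings, with 95% intervals; filled points passed the test, and dotted lines mark the median of all genes under the same scaling. Values scaled by TMM or relative log expression lie mostly above 0 and those scaled to mitochondrial mRNAs below 0, and the members, except PSMB9 in the knockdown line, lie to the right of the median gene of their scaling.

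The response of the members to triptolide was not shown to differ between the lines. The interaction of knockdown and triptolide was called for 0 of 9 members in edgeR, with or without the block, and for 0.0% of all genes without and 0.0047% with it. DESeq2 also called 0 and no member had an unadjusted p under 0.05. The largest interactions with the block were those of PSMB9 (-0.20 ± 0.37) and HLA-C (0.16 ± 0.22). No effect of the vehicle was detected: DMSO against no treatment called 0 of 9 members and 0.0% of genes in each line in edgeR, 0 members in DESeq2, and no member had an unadjusted p under 0.05.

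Other genes of the class I pathway were called with triptolide too. Of the 8 genes of peptide loading and folding, 6 were called higher with the block in each line on the TMM scale, and 5 of those 6 were negative under mitochondrial scaling. Of these, 2 passed without the block too: TAPBP, or tapasin, the bridge between the transporter and the heavy chain, at 0.97 ± 0.27 in the knockdown line and 0.75 ± 0.27 in the control line, and its relative TAPBPL at 1.68 ± 0.33 and 1.58 ± 0.33. Scaled to mitochondrial mRNAs with the block, TAPBP turned negative (-0.53 ± 0.34 and -0.13 ± 0.34) and TAPBPL did not. PSME1 and PSME2, which form the interferon-inducible cap of the proteasome, changed by 0.76 ± 0.15 and 0.94 ± 0.12 in the knockdown line and by 0.75 ± 0.15 and 0.85 ± 0.12 in the control line with the block, and both were negative under mitochondrial scaling. The constitutive subunits PSMB5, PSMB6 and PSMB7 were called higher as well, 3 of 3 in each line with the block and TMM, and were likewise negative under mitochondrial scaling.

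Among the 11 transcription factors of the pathway, the direction differed from gene to gene. CREB1 fell, by 1.81 ± 0.22 on the log2 scale in the knockdown line and by 1.54 ± 0.22 in the control line, and so did RFXAP, a subunit of the RFX complex, by 1.82 ± 0.49 and 1.64 ± 0.51, and both also fell when scaled to mitochondrial mRNAs. IRF1, an activator of class I promoters, was at 17.1, 16.2 and 13.3 CPM with triptolide against 8.94, 4.77 and 2.81 CPM with DMSO in the knockdown line, and at 22.6, 22.5 and 14.2 CPM against 6.67, 6.69 and 2.32 CPM in the control line. Its groups did not overlap, and its log2 changes of 1.49 ± 0.47 and 1.92 ± 0.48 passed in both lines without the block (edgeR adjusted p = 0.0207 and 0.00579). It was also positive under mitochondrial scaling, at 0.22 ± 0.36 and 1.15 ± 0.36 with the block. NLRC5 changed by 0.33 ± 0.18 in the knockdown line and 0.44 ± 0.18 in the control line with the block, the last of which passed on the TMM scale and was negative under mitochondrial scaling. Of the 44 interferon-stimulated genes, 24 were called lower and 7 higher in the knockdown line with the block and TMM, and 19 lower and 6 higher in the control line, where 28.1% and 26.0% of all genes were called lower. Their median log2 changes were -0.81 and -0.43 beside 0.41 and 0.45 for the 9 class I genes, while scaled to mitochondrial mRNAs both lists had negative medians, -2.24 and -1.27 beside -1.05 and -0.40.

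The class I genes also differed between the numbered sets of libraries, which the labels call biological replicates. Set 3 against sets 1 and 2, fitted over all 6 groups at once, called 8 of 9 members lower and none higher, where 29.5% of all genes were called and 14.8% called lower. HLA-F had a median of 5.99 CPM in the 6 libraries of set 3 (range 5.14 to 7.91), 16.4 to 33.7 CPM in set 1 and 7.54 to 14.7 CPM in set 2, and its log2 change for set 3 was -1.43 ± 0.15. HLA-B had a median of 171 CPM in set 3 (125 to 268), 450.5 CPM in set 1 (359 to 789) and 263 CPM in set 2 (232 to 384), with a change of -1.14 ± 0.09. In each of the 6 groups the library numbered 1 was the highest and the one numbered 3 the lowest for HLA-B. HLA-C (-0.84 ± 0.10), B2M (-0.78 ± 0.09), PSMB8 (-0.75 ± 0.10), PSMB9 (-0.70 ± 0.17), TAP1 (-0.61 ± 0.07) and HLA-E (-0.60 ± 0.09) were lower as well. TAP2 was not, at a median of 12.1 CPM in set 3, 11.9 CPM in set 1 and 10.3 CPM in set 2 and a change of 0.06 ± 0.08 (edgeR adjusted p = 0.604). The 8 calls were also made by DESeq2 and under each of the other scalings. Of all genes, 12.4% were called lower by DESeq2, 13.8% with relative log expression scaling and 13.9% with totals of gene counts. The share was 40.2% with scaling to mitochondrial mRNAs, under which TAP2 was below 0 too.

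Set 1 also stood above set 2. In a comparison added after the data had been seen, 8 of 9 members were called higher in set 1 than in set 2, where 48.8% of all genes were called and 24.6% called higher, but the count was 2 when counts were scaled to mitochondrial mRNAs, under which B2M and TAP2 (-0.03) were below 0, and 5 over the 12 libraries without triptolide. HLA-F (0.90 ± 0.16), HLA-B (0.87 ± 0.10), PSMB8 (0.82 ± 0.11) and HLA-C (0.81 ± 0.11) differed most. B2M had 0.24 ± 0.10 and an edgeR adjusted p of 0.0629. The share of counts in mitochondrial ribosomal RNA without triptolide was 23.5% to 31.1% in set 1, 31.2% to 37.1% in set 2 and 20.2% to 32.6% in set 3. The 13 leukocyte markers without HLA-DRA summed to a median of 8.95 CPM in set 1, 7.26 CPM in set 2 and 5.18 CPM in set 3. The part of either in the differences between sets was not tested.

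Other interferon-responsive genes separated set 3 more sharply and set 1 from set 2 in another order. Of the 44 interferon-stimulated genes 43 were called lower in set 3, where 14.8% of all genes were. Their median log2 change was -2.50, beside -0.75 over the 9 class I genes and -0.05 over all genes. IFI44L (-7.27), XAF1 (-6.94) and OAS2 (-5.75) had the lowest of these values, and ISG15, the ubiquitin-like interferon product, had -4.79. In set 3, XAF1 was at 0 to 0.1135 CPM and IFI44L at 0 to 0.596 CPM. The size of their changes is therefore uncertain. Between sets 1 and 2, however, 16 of the 44 were called lower in set 1 and 6 higher, where 24.1% and 24.6% of all genes were. The median over the 44 was -0.26, beside 0.48 over the class I genes. NLRC5 instead had the order of the class I genes, at 14.4, 7.48 and 4.71 CPM in sets 1, 2 and 3 of the DMSO control group, with changes of -1.06 ± 0.11 for set 3 and 1.35 ± 0.13 for set 1 against set 2. PSMB10, the remaining immunoproteasome subunit, was lower in set 3 by 0.45 ± 0.14 and higher in set 1 than in set 2 by 1.15 ± 0.16, and the constitutive subunits PSMB5, PSMB6 and PSMB7 were not lower in set 3, at 0.25, 0.13 and 0.18.

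**Figure D4:**
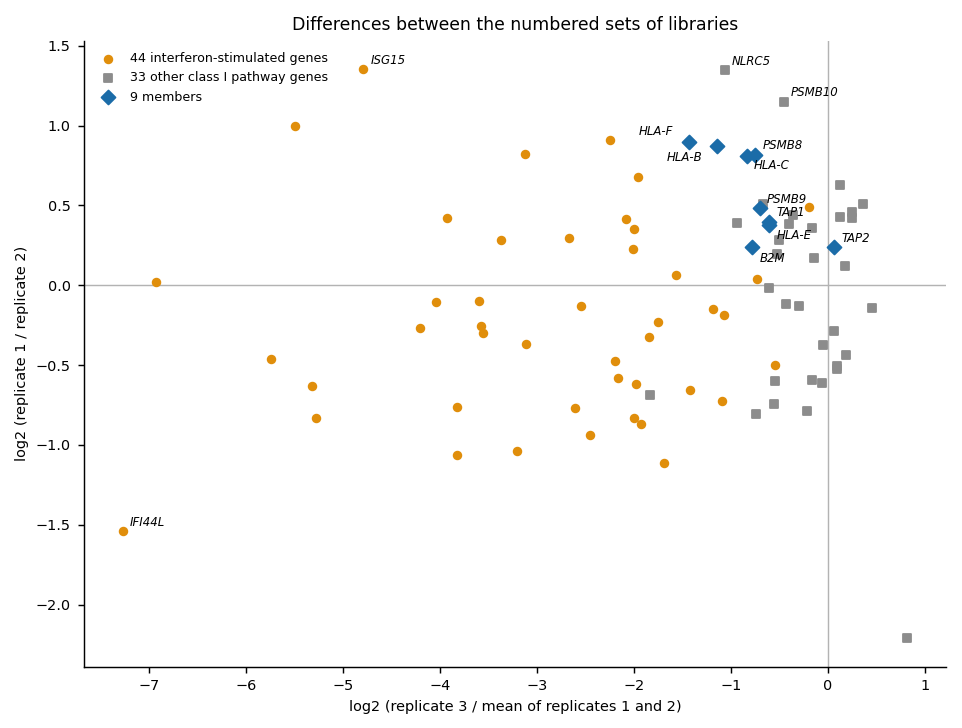
Log2 change of set 3 against sets 1 and 2 on the x axis and of set 1 against set 2 on the y axis, one point per gene, for the 9 class I genes, 33 other genes of the pathway and 44 interferon-stimulated genes. The class I genes other than TAP2 lie left of 0 and above 0, as NLRC5 does, and many interferon-stimulated genes lie farther left and below 0.

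The members followed one another from library to library, apart from TAP2. Over the 18 libraries the 28 pairs of members without TAP2 correlated at Pearson r between 0.576 and 0.97 (median 0.887) in log2 (CPM + 1), and the 8 pairs with TAP2 at 0.058 to 0.594. After each group's mean was taken off, the 28 pairs reached 0.813 to 0.979 and those with TAP2 -0.091 to 0.337. These values describe libraries that share replicate sets and scaling. Among 14276 other genes with a mean of at least 1 CPM, those most like the mean of the 9 members after group means were taken off were CD74 (r = 0.983), the invariant chain of class II, then PSME2 (0.982), MVP (0.979), LYNX1 (0.977) and GPT (0.977). NLRC5 ranked 51 of 14276 by the same measure, at 0.948. Over the 18 libraries as they stand the closest were HPN (0.964), GPSM3 (0.961), RPL39 (0.952), MVP (0.951) and MXRA8 (0.949). By role, the closest after removing group means were CD74 to the heavy chains (0.987), SAMHD1 to B2M (0.974), PKD1P3 to the transporter (0.972) and DTX3 to the immunoproteasome (0.982).

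**Figure D5:**
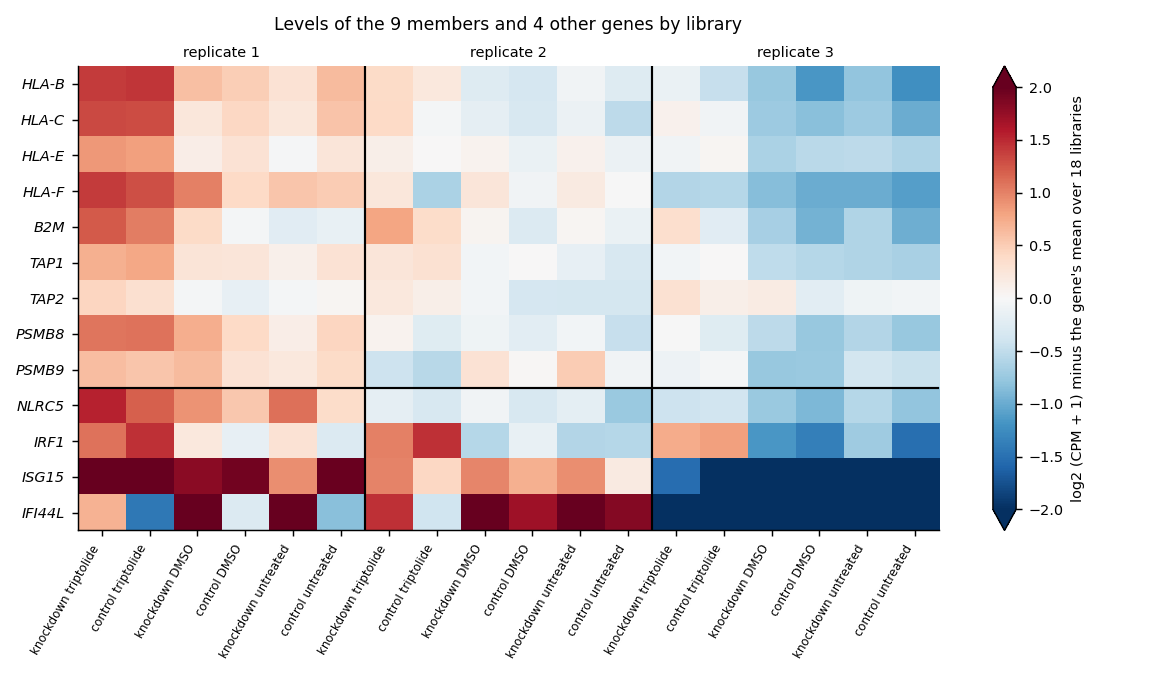
Log2 (CPM + 1) minus each gene's mean over 18 libraries, as colour, for the 9 class I genes above the line and NLRC5, IRF1, ISG15 and IFI44L below it; columns are libraries, set 1 to set 3 from left to right. Most class I genes are redder in set 1 and bluer in set 3, and TAP2 is pale throughout.

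Ratios within a library do not depend on its scaling. The immunoproteasome subunit PSMB8 stood at 1.63, 1.04 and 0.768 times its constitutive counterpart PSMB5 in knockdown libraries 1 to 3 with triptolide and at 1.51, 0.941 and 0.669 times in control libraries 1 to 3, in CPM. With DMSO the ratios were 1.84, 1.22 and 0.624 in the knockdown line and 1.29, 1.10 and 0.588 in the control line. Untreated, they were 1.30, 1.37 and 0.608 in the knockdown line and 1.25, 1.01 and 0.582 in the control line. Set 3 had the lowest ratio in all 6 groups. The knockdown library had the higher ratio in 9 of 9 pairs, although the groups overlapped under each treatment. No other ratio taken reached that count. It was 6 of 9 for PSMB9 over PSMB6, 5 for HLA-B over HLA-C and 4 for PSMB10 over PSMB7. HLA-B over B2M had 3, and TAP1 over TAP2 and TAP1 over PSMB9 had 2 each. PSMB9 over PSMB6 was lower with triptolide in sets 1 and 2 and higher in set 3, with 1 library a side and no test. In sets 1 and 2 it was 0.115 and 0.0904 with triptolide and 0.203 and 0.200 with DMSO in the knockdown line, and 0.119 and 0.0967 with triptolide and 0.148 and 0.185 with DMSO in the control line. In set 3 it was 0.0855 with triptolide and 0.0777 with DMSO in the knockdown line, and 0.0856 and 0.0749 in the control line. TAP1 over TAP2 was 5.37, 4.56 and 3.42 in the knockdown line and 6.12, 5.11 and 4.15 in the control line with triptolide, lowest in set 3 each time. HLA-B over B2M was 0.850, 0.591 and 0.678 in the knockdown line and 1.05, 0.693 and 0.625 in the control line with DMSO.

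The counting limits what can be said of single members. The heavy chains are close relatives of one another and of pseudogenes, and reads that aligned to more than one place, 10.2% to 22.6% of reads per library, were not given to a gene, so the split between HLA-B, HLA-C, HLA-E and HLA-F is uncertain. PSMB8 and PSMB9 share 139 bp of exon on opposite strands, and the antisense RNA PSMB8-AS1 shares 672 bp with TAP1, 602 bp with PSMB8 and 174 bp with PSMB9. The kit marks strand, but whether the counting used it is not given in the sources used here. PSMB8-AS1 itself received 529 counts over the 18 libraries, beside 27137 for PSMB8, 30073 for TAP1 and 5030 for PSMB9.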

How the data were processed

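Each library has one table of raw read counts per gene, deposited without normalization. The submitters' processing notes name STAR 2.4.2a, HTSeq 0.6.1, DESeq2 1.4.5, R 3.1 and the build hg19. Whether counting used the strand is not given in the sources used here. Symbols and positions come from GENCODE release 44 on GRCh37, in which 58822 of 60252 gene IDs (97.6%) had a symbol. The 5 summary lines that name no gene (24.9% to 35.4% of reads) stayed out of library sizes and tests.

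After TMM scaling, edgeR 4.0.16 (R 4.3.3) gave the main quasi-likelihood tests, 2-sided, in one fit of 18 libraries with 12 residual degrees of freedom, after its low-count filter by group left 21285 genes. A call is a Benjamini-Hochberg adjusted p under 0.05 over those genes. Standard errors are the log2 change over the square root of its F statistic. DESeq2 1.42.0, other scalings, no filter, fewer libraries and a replicate block were alternatives, and the steps were tested on simulated data. Whether equal numbers pair libraries was checked on deviations from group means: same-numbered libraries of different groups correlated at 0.307 to 0.688 (45 pairs), others at -0.519 to 3.38e-05 (90 pairs), and 18 of 18 matched their own number best. The numbers were therefore taken as pairs, and blocked fits (10 residual degrees of freedom) are given where they change a call. The comparison of sets of libraries uses the blocked fit. No library was a copy of another (between replicates, chi-square per degree of freedom was at least 53.4). The labels do not say that replicates were separate cultures, so p-values measure the spread between these libraries.

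Besides the 9 members and ADAR, genes named were the most strongly called and most abundant genes of a pathway list and an interferon list, the 5 genes most like each role, and genes overlapping a member. A few others on those lists (NLRC5 and PSMB10 among them) were named after their values were seen. The members, lists and comparisons were chosen with earlier results of these data known. A few genes of the lists are not reported here.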

Additional observations from a re-analysis of the deposited data

How the results depend on the processing

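No alternative tried changed the count of 0 members for the knockdown, the interaction or DMSO against no treatment, or the 8 of 9 for set 3. In set 3, 40.2% of all genes were called lower with mitochondrial scaling, beside 14.8% with TMM. For triptolide against DMSO the count of members, 0 of 9 without the replicate block, was 5 with the block in the knockdown line and 7 in the control line (29.1% and 26.1% of all genes called higher). It was 1 and 1 with relative log expression scaling (18.4% and 16.4% called higher) and 2 and 2 without the low-count filter (9.52% and 8.27%). DESeq2 gave 1 and 2 (16.1% and 15.4%). With scaling to mitochondrial mRNAs the count was 2 (lower) and 0 (53.6% and 28.1% of all genes called lower). Leaving out one library at a time gave 0 to 1 in each line, the 1 coming without triptolide library 3 of that line (15.6% of all genes called higher in the knockdown line and 13.8% in the control line). Alternatives added after the data had been seen joined the replicate block with another scaling. Relative log expression gave 7 and 7 (31.1% and 28.3% of all genes called higher), totals of gene counts 2 (lower) and 0 (51.3% and 48.6% called lower), and mitochondrial mRNAs 7 (lower) and 0 (68.7% and 46.6% called lower). The block without all libraries numbered 1, 2 or 3 gave 4, 6 and 3 in the knockdown line (22.5%, 24.6% and 22.7% of all genes called higher). In the control line it gave 4, 7 and 3 (20.1%, 21.9% and 20.1% called higher). With the block and mitochondrial scaling all 9 members were below 0 in each line, and with the block and totals 7 of 9 were in the knockdown line and 6 of 9 in the control line. Those that changed sign and passed the test were in the knockdown line: with the block and mitochondrial scaling, HLA-B was at -0.80, HLA-E at -0.99, HLA-F at -1.22, TAP1 at -1.05, TAP2 at -1.17 and PSMB8 at -1.11, and TAP2 was at -1.12 with that scaling without the block and at -0.40 with the block and totals. For set 1 against set 2, the 8 of 9 became 2 with mitochondrial scaling, where TAP2 was at -0.03 and 8.14% of all genes were called higher. The count was 5 over the 12 libraries without triptolide (24.5% of all genes called higher) and 6 to 8 with one library left out (20.6% to 22.9%). The cause of these differences was not tested.

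With 3 libraries a group and no block, the 95% intervals of the members in the knockdown comparisons reached from -1.29 to 1.88 on the log2 scale, and PSMB9, TAP2 and HLA-F, with the fewest counts, had the least depth behind them. The counts give no absolute RNA amount per cell.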
